A study of Sus scrofa with 12 samples.

Results

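The unfolded protein and amino acid stress genes described here are 35 genes chosen by symbol, 25 of the endoplasmic reticulum (ER) and 10 of the ATF4 branch. The counts table held 21153 genes. Of the 35 genes, 32 could be matched by symbol to a row in it, and all 32 were among the 12444 genes with enough counts to be tested. These 32 were 14 ER chaperones and folding factors, 4 genes of ER-associated degradation, 4 sensors and transcription factors, 2 genes of ER translocation and export, and 8 genes of the ATF4 branch. ATF4, DDIT3 and SDF2L1 were not analysed here.

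RNA was sequenced from primary smooth muscle cells that had been isolated from coronary arteries of 3 pigs (Sus scrofa) and are labelled as differentiated or contractile. One group received PDGF-BB at 30 ng/ml together with S100A4 at 1 µg/ml (the combination below), one S100A4 alone, one PDGF-BB alone, and control cells neither protein, with 3 libraries in each of the 4 groups. Treatment lasted 4 h, and all groups, controls included, were between passages 6 and 11 and had been plated 24 h earlier in medium with 10% fetal calf serum. PDGF-BB is a growth factor for smooth muscle cells and S100A4 a small calcium-binding protein that cells also release; the design text calls it oS100A4 and leaves the prefix unexplained. Breed, sex and age were not used here.

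The unfolded protein response is the reaction of a cell to misfolded protein in the ER. Its sensors are IRE1 (the product of ERN1), ATF6 and PERK. IRE1 splices XBP1 mRNA and ATF6 is cleaved into a transcription factor, and these arms raise chaperones, folding enzymes and the machinery that removes misfolded proteins. PERK is one of several kinases that phosphorylate eIF2, which slows translation but favours that of ATF4. ATF4 in turn drives genes of amino acid synthesis and transport, and it also responds to amino acid shortage without any fault in the ER. Read counts per gene do not separate spliced from unspliced XBP1 mRNA and do not measure ATF6 cleavage or eIF2 phosphorylation.

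Libraries held between 21455021 and 32448438 counts. Levels are given in CPM (counts scaled to the library total, here on library sizes scaled by TMM), and at the lowest total, before the TMM scaling, 1 CPM stood for 21.5 counts. Apart from ERN1, whose lowest count was 7, no member fell below 202 counts in any library. Replicate numbers 1 to 3 ran through all groups, and libraries with the same number resembled each other: after subtraction of the group means, r across genes was 0.746 to 0.908 in the 18 same-numbered pairs of libraries and −0.676 to 0.136 in the 36 other pairs. Differences were tested with replicate number as a block. The 4 libraries numbered 2 lay apart from the rest on the first principal component (49.9% of the variance). Their 8 smooth muscle markers summed to 7920 to 9300 CPM, against 17500 to 21900 CPM in the libraries numbered 1 and 3, and their 6 fibroblast markers to 942 to 1090 CPM, against 267 to 473 CPM. ACTA2 (6550 to 17500 CPM over all libraries) and LUM (182 to 801 CPM) made up most of these sums. Not every marker followed its sum, as the fibroblast marker TCF21 was highest in a library numbered 1 or 3. All 8 smooth muscle markers were detected in every library, but TAGLN, a defining contractile marker, had only 83 to 213 counts and MYOCD, which encodes a master regulator of the contractile state, 71 to 188. PTPRC, the general marker of white blood cells, had 0 counts throughout. Of the other macrophage markers, CD68 had 15 to 32 counts, CSF1R 14 to 36 and AIF1 3 to 10. MRC1 had at most 2 counts and CD163 at most 1. The summed endothelial markers were higher with PDGF-BB through ERG alone: without ERG they lay at 20 to 53.9 CPM with the combination, 20.6 to 57.7 CPM with S100A4, 19.1 to 59.0 CPM with PDGF-BB and 19.5 to 53.5 CPM in control cells. These sums without ERG differed by replicate number and did not overlap. They were 19.1 to 20.6 CPM in the libraries numbered 1, 53.5 to 59.0 CPM in those numbered 2 and 34.1 to 37.9 CPM in those numbered 3. The part of cell composition in the results was not tested. In bulk RNA, fewer cells of a type and less RNA per cell cannot be told apart.

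Most ER chaperones and folding factors were higher with PDGF-BB, alone or in the combination, than in control cells. The lumenal HSP70 chaperone gene HSPA5, its nucleotide exchange partner HYOU1 and the secreted stress factor MANF moved the most, to 1.61 to 1.75 times the control level with the combination and 1.37 to 1.58 times with PDGF-BB. With S100A4 alone, 1 of the 14 was called. Adjusted p-values here and below are from edgeR's quasi-likelihood test with the replicate block, adjusted by Benjamini-Hochberg over all 12444 genes, with n = 3 libraries per group and errors of log2 fold changes as SE. The threshold was an adjusted p of 0.05.

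HSPA5 (chr1:265930044-265934959 on Sscrofa11.1) encodes BiP, the main chaperone of the ER lumen and the protein that holds the sensors inactive. It stood at 1470, 1260 and 1740 CPM in the combination libraries 1, 2 and 3, at 953, 849 and 965 CPM with S100A4, at 1210, 1050 and 1460 CPM with PDGF-BB and at 857, 760 and 925 CPM in control cells. All libraries with PDGF-BB, alone or in the combination, lay above all control libraries, while the S100A4 libraries overlapped the controls. The log2 fold change against control was 0.80 ± 0.05 for the combination (adjusted p = 1.5e-08), 0.13 ± 0.05 for S100A4 (adjusted p = 0.14) and 0.54 ± 0.05 for PDGF-BB (adjusted p = 1e-06). The S100A4 value was positive in 3 of 3 pairs (0.15, 0.16 and 0.06), and it passed the threshold when the S100A4 and control libraries were fitted alone (0.026) or without S100A4 replicate 3 (0.024).

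HYOU1 (chr9:46264929-46277056) encodes a large HSP70-like chaperone that helps BiP exchange its nucleotide. Its levels were 488, 465 and 518 CPM with the combination, 302, 340 and 328 CPM with S100A4, 414, 393 and 449 CPM with PDGF-BB and 294, 299 and 321 CPM in control cells. The combination libraries lay above every other library, the PDGF-BB libraries came next, and the S100A4 libraries overlapped the controls. Its log2 fold change against control was 0.69 ± 0.05 for the combination (adjusted p = 3e-08), 0.09 ± 0.05 for S100A4 (adjusted p = 0.29) and 0.46 ± 0.05 for PDGF-BB (adjusted p = 2.5e-06).

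MANF (chr13:33658279-33662218) encodes a small ER protein that binds BiP and is secreted under ER stress. It reached 162, 149 and 166 CPM with the combination, 89.8, 108 and 93.1 CPM with S100A4, 147, 137 and 147 CPM with PDGF-BB and 88.4, 96.1 and 88.4 CPM in control cells. Each library with PDGF-BB exceeded each library without it. MANF differed from control by 0.81 ± 0.07 on the log2 scale with the combination (adjusted p = 2.3e-07), by 0.09 ± 0.07 with S100A4 (adjusted p = 0.47) and by 0.66 ± 0.07 with PDGF-BB (adjusted p = 2.6e-06).

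DNAJB11 (chr13:124387921-124409967) encodes a J-domain co-chaperone of BiP. It was counted at 73.8, 75.7 and 78.0 CPM with the combination, 59.1, 62.1 and 57.1 CPM with S100A4, 69.1, 69.4 and 70.3 CPM with PDGF-BB and 53.7, 58.4 and 53.8 CPM in control cells. Here too the libraries with PDGF-BB stood above all libraries without it. The log2 differences from control were 0.46 ± 0.05 with the combination (adjusted p = 1.6e-06), 0.10 ± 0.05 with S100A4 (adjusted p = 0.20) and 0.33 ± 0.05 with PDGF-BB (adjusted p = 4.3e-05).

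HSP90B1 (chr5:80511513-80531016) encodes GRP94, the HSP90 of the ER. It gave 549, 555 and 546 CPM with the combination, 461, 466 and 423 CPM with S100A4, 522, 521 and 520 CPM with PDGF-BB and 435, 441 and 431 CPM in control cells. Libraries with and without PDGF-BB did not overlap. Against control, the log2 fold change was 0.34 ± 0.04 with the combination (adjusted p = 2.2e-06), 0.05 ± 0.04 with S100A4 (adjusted p = 0.49) and 0.26 ± 0.04 with PDGF-BB (adjusted p = 3.8e-05).

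CRELD2 (chr5:709042-716766) encodes an ER protein with disulfide isomerase activity that is raised by ER stress. Its values were 37.1, 33.8 and 37.0 CPM with the combination, 23.5, 27.1 and 22.7 CPM with S100A4, 34.0, 31.9 and 31.3 CPM with PDGF-BB and 23.6, 24.2 and 25.4 CPM in control cells. The libraries with PDGF-BB were again all above those without. Log2 fold changes against control were 0.56 ± 0.07 for the combination (adjusted p = 1.6e-05), 0.01 ± 0.07 for S100A4 (adjusted p = 0.98) and 0.41 ± 0.07 for PDGF-BB (adjusted p = 0.00033).

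**Figure D1:**
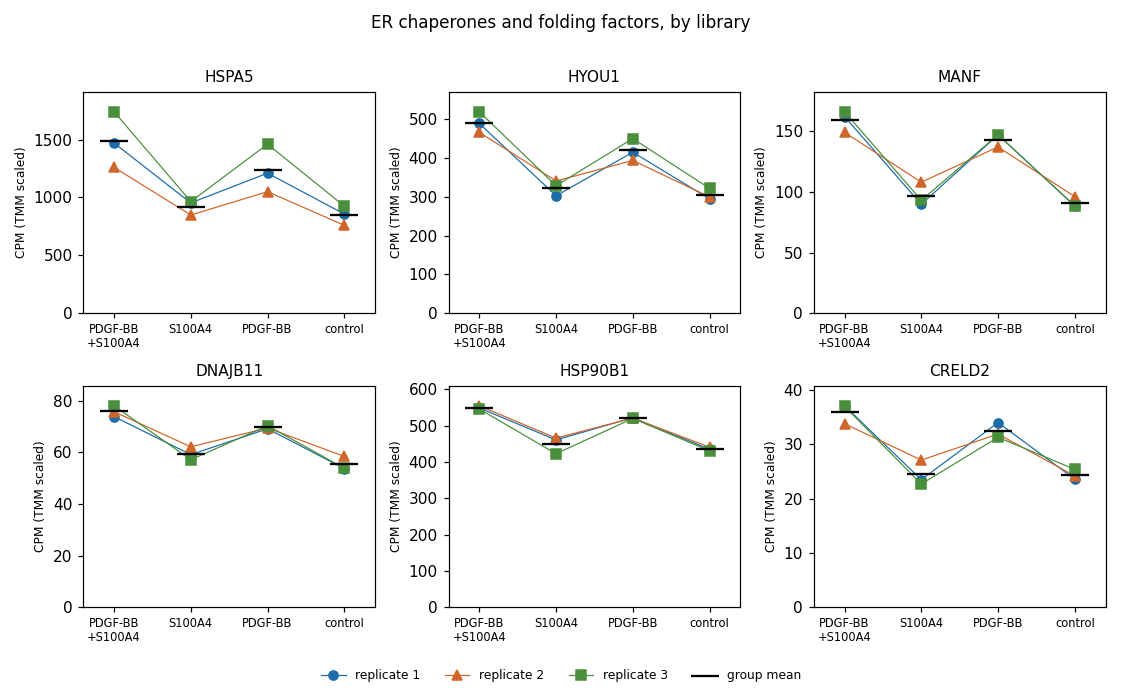
Level of 6 ER chaperones and folding factors in each of the 12 libraries, in CPM on library sizes scaled by TMM (y axis, from 0), by group (x axis), with lines joining libraries of the same replicate number and black bars for group means (n = 3). In each panel all libraries with PDGF-BB, alone or in the combination, lie above all control libraries, and the S100A4 libraries lie within or close to the control range. The 6 genes were picked for the smallest adjusted p against control, which favours such a separation.

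Of the 14 ER chaperones and folding factors, 13 were called higher with the combination against control and none lower, where 27.5% of all tested genes were called higher and 28.6% lower. With PDGF-BB against control, 12 were higher and none lower, against 24.3% higher and 24.5% lower among all genes. With S100A4 against control 1 of the 14 was higher, against 6.46% of all genes higher and 4.28% lower. The 3 comparisons share the control libraries. The median log2 fold change of the 14 was 0.34 with the combination, 0.06 with S100A4 and 0.19 with PDGF-BB, where the medians over all genes were −0.03, −0.02 and −0.02. Without the replicate block, when the spread between same-numbered libraries stays in the error, 9 of the 14 passed with the combination, 0 with S100A4 and 6 with PDGF-BB, where 22% of all genes, 0.563% and 14.7% passed in either direction. The 6 that passed with PDGF-BB in that fit were the 6 described above, and PDIA6, CALR and DNAJC3 joined them with the combination. Those 6 had been picked for the smallest adjusted p against control, so the separation of their libraries adds no evidence.

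The protein disulfide isomerases form and rearrange disulfide bonds. PDIA6 differed from control by 0.36 ± 0.05 on the log2 scale with the combination and by 0.19 ± 0.05 with PDGF-BB, PDIA4 by 0.31 ± 0.04 and 0.19 ± 0.04, and PDIA3, which works on glycoproteins, by 0.17 ± 0.03 and 0.16 ± 0.03. P4HB, which is also a subunit of the collagen prolyl hydroxylase, differed by 0.20 ± 0.04 and 0.11 ± 0.04. The lectin chaperones of the calnexin cycle gave 0.26 ± 0.04 and 0.17 ± 0.04 for the soluble CALR and 0.14 ± 0.04 in both comparisons for the membrane-bound CANX. All these values were called, with adjusted p from 1.8e-05 for PDIA6 with the combination to 0.022 for P4HB with PDGF-BB, and each was positive in 3 of 3 same-numbered pairs.

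Calls of the smaller PDGF-BB effects depended on single libraries or the scaling. P4HB was not called against control without any 1 of PDGF-BB replicate 1 or 3 or control replicate 1 or 3 (adjusted p = 0.063 to 0.13), nor with DESeq2 (0.058) or upper-quartile scaling (0.15). CANX was not called without PDGF-BB replicate 3 (0.051), without all 4 libraries numbered 3 (0.066) or with upper-quartile scaling (0.061), and PDIA6 not without the 4 libraries numbered 3 (0.075). With the combination against control, CANX alone among the 13 lost its call to a scaling, the upper-quartile one (0.13).

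DNAJC3 and DNAJB9 encode J-domain co-chaperones of BiP like DNAJB11. DNAJC3 was called higher with the combination but not with PDGF-BB, and DNAJB9 was called in neither comparison. DNAJC3, whose product also inhibits PERK, was the ER folding gene called with S100A4 against control, at 77.4, 70.4 and 70.5 CPM in the S100A4 libraries and 61.2, 58.7 and 62.0 CPM in control libraries. The 2 groups did not overlap, and the log2 fold change was 0.26 ± 0.06 (adjusted p = 0.0094). This call was absent without the replicate block (adjusted p = 0.60), without the 4 libraries numbered 1 (0.14), without S100A4 replicate 2 (0.076) and without control replicate 1 (0.062). DNAJC3 stood at 84.6, 68.1 and 78.0 CPM with the combination and at 70.0, 58.3 and 71.6 CPM with PDGF-BB. Its change against control was 0.34 ± 0.06 with the combination (adjusted p = 0.00021) and 0.13 ± 0.06 with PDGF-BB (adjusted p = 0.076), and it became a PDGF-BB call without PDGF-BB replicate 2 (0.033), control replicate 2 (0.040) or all 4 libraries of that number (0.0043). DNAJB9, a regulator of IRE1 that is induced by XBP1, differed from control by −0.11 ± 0.09 with the combination, 0.07 ± 0.09 with S100A4 and −0.21 ± 0.09 with PDGF-BB, with adjusted p of 0.31, 0.70 and 0.070. With upper-quartile scaling (0.029), without the low-count filter (0.047) or without PDGF-BB replicate 3 (0.010), the negative PDGF-BB value of DNAJB9 passed the threshold. Its combination value passed without the 4 libraries numbered 2 (−0.19, adjusted p = 0.032).

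**Figure D2:**
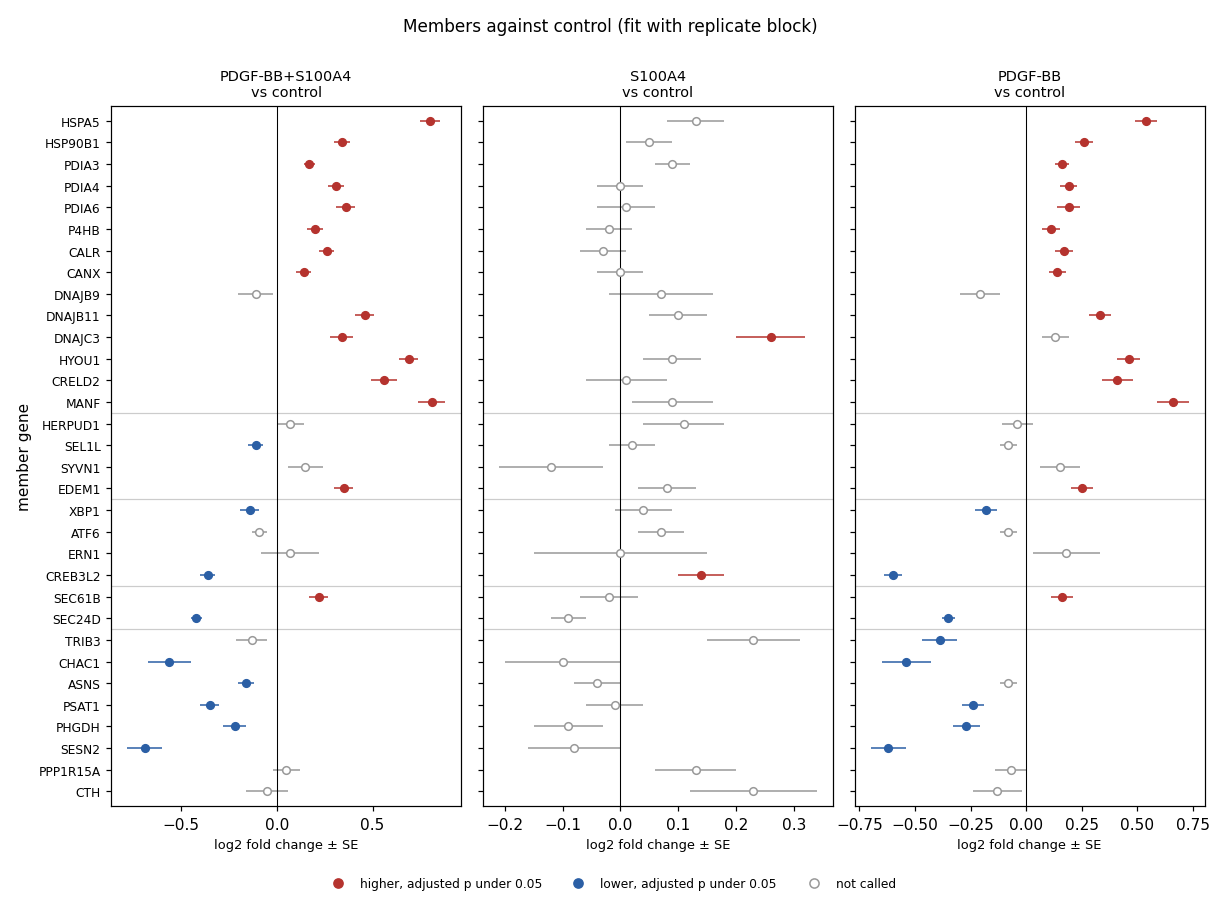
Log2 fold change against control ± SE (x axis, n = 3 libraries per group) of the 32 members (y axis), from left to right for the combination, S100A4 and PDGF-BB, from edgeR's fit with the replicate block. Filled red points were called higher, filled blue points called lower and open grey points not called; grey lines separate, from the top, ER folding, ER-associated degradation, sensors and factors, export and the ATF4 branch, and the x axes differ in range.

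Among the 4 genes of ER-associated degradation, which sends misfolded proteins to the proteasome, EDEM1 alone was higher with PDGF-BB and with the combination. EDEM1 (chr13:61703601-61732231), a lectin-like factor that picks out misfolded glycoproteins, stood at 178, 236 and 205 CPM with the combination, 153, 204 and 155 CPM with S100A4, 169, 213 and 191 CPM with PDGF-BB and 144, 196 and 145 CPM in control cells. The libraries numbered 2 were high in each group, so that the groups overlapped, but within each number the libraries with PDGF-BB were higher than the control library. The log2 fold change against control was 0.35 ± 0.05 with the combination (adjusted p = 4.9e-05), 0.08 ± 0.05 with S100A4 (adjusted p = 0.42) and 0.25 ± 0.05 with PDGF-BB (adjusted p = 0.0013). Without the block it was not called (adjusted p = 0.18 with the combination and 0.43 with PDGF-BB).

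SEL1L (chr7:104219628-104283250), the adaptor of the ubiquitin ligase complex, was lower with the combination against control. Its levels were 234, 170 and 255 CPM with the combination, 261, 181 and 279 CPM with S100A4, 242, 162 and 273 CPM with PDGF-BB and 264, 173 and 279 CPM in control cells. The groups overlapped widely, and the libraries numbered 2 were low in all of them. The combination value was −0.11 ± 0.04 (adjusted p = 0.030), and it was not called without the block (0.81) or without combination replicate 1 (0.12) or 3 (0.12) or control replicate 1 (0.13) or 3 (0.069). The S100A4 and PDGF-BB values were 0.02 ± 0.04 (adjusted p = 0.85) and −0.08 ± 0.04 (adjusted p = 0.11). SYVN1, the ubiquitin ligase itself, and HERPUD1, a ligase partner that is a sensitive target of both ATF6 and ATF4, were not called against control in any of the 3 comparisons, with log2 fold changes from −0.12 to 0.15. SYVN1 was lower with S100A4 when the 4 libraries numbered 2 were left out (−0.30, adjusted p = 0.026).

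The sensors and transcription factors did not rise with PDGF-BB. CREB3L2 (chr18:11533184-11666132), an ER-bound factor related to ATF6 that is cleaved to drive secretory genes, had the smallest adjusted p of the 4. It stood at 212, 215 and 215 CPM with the combination, 300, 306 and 300 CPM with S100A4, 180, 172 and 191 CPM with PDGF-BB and 272, 270 and 280 CPM in control cells. The 4 groups did not overlap: S100A4 was highest, then control, then the combination, then PDGF-BB. The log2 fold change against control was −0.36 ± 0.04 with the combination (adjusted p = 2.7e-06), 0.14 ± 0.04 with S100A4 (adjusted p = 0.028) and −0.60 ± 0.04 with PDGF-BB (adjusted p = 3.6e-08), so that PDGF-BB cells had 1.51-fold less of it. Both negative values were called without the block as well (adjusted p = 0.0012 and 0.00016), whereas the S100A4 value was not (0.61). The S100A4 call was also lost without S100A4 replicate 1 or 2 or any 1 control library (0.083 to 0.16).

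XBP1 (chr14:46011239-46016526) was slightly lower with PDGF-BB. It gave 174, 139 and 186 CPM with the combination, 207, 164 and 194 CPM with S100A4, 178, 128 and 182 CPM with PDGF-BB and 195, 160 and 193 CPM in control cells. The groups overlapped, and the libraries numbered 2 were the lowest of each group. The log2 difference from control was −0.14 ± 0.05 with the combination (adjusted p = 0.024), 0.04 ± 0.05 with S100A4 (adjusted p = 0.69) and −0.18 ± 0.05 with PDGF-BB (adjusted p = 0.0080). Neither negative value was called without the block (0.63 and 0.59). The combination call was lost without combination replicate 1 (0.11) or 2 (0.060) or control replicate 2 (0.12), and the PDGF-BB call without PDGF-BB replicate 2 (0.062) or all libraries numbered 1 (0.055) or 2 (0.14).

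ATF6 (chr4:88591279-88806156), the sensor that becomes a transcription factor, ran at 217, 152 and 191 CPM with the combination, 257, 158 and 216 CPM with S100A4, 217, 149 and 200 CPM with PDGF-BB and 240, 158 and 202 CPM in control cells. These ranges overlapped almost fully. Its log2 differences from control were −0.09 ± 0.04 with the combination (adjusted p = 0.074), 0.07 ± 0.04 with S100A4 (adjusted p = 0.37) and −0.08 ± 0.04 with PDGF-BB (adjusted p = 0.14). Under upper-quartile scaling the combination value (adjusted p = 0.0040) and the PDGF-BB value (0.021) passed the threshold. ERN1 differed far more between replicate numbers than between treatments. Its level was 20.2 CPM with the combination, 18.0 CPM with S100A4, 21.3 CPM with PDGF-BB and 18.1 CPM in control cells in the libraries numbered 2, and 0.304 to 2.17 CPM in all others. No ERN1 comparison was called, and its log2 fold changes against control, 0.07 with the combination, 0.00 with S100A4 and 0.18 with PDGF-BB, each had an SE of 0.15.

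The translocation and export genes moved in opposite directions. SEC24D (chr8:104560723-105005400), a cargo-binding subunit of the COPII coat that carries proteins from the ER to the Golgi, stood at 271, 233 and 258 CPM with the combination, 339, 289 and 334 CPM with S100A4, 277, 244 and 279 CPM with PDGF-BB and 350, 314 and 356 CPM in control cells. All libraries with PDGF-BB lay below all libraries without it. The log2 fold change against control was −0.42 ± 0.03 with the combination (adjusted p = 1.8e-07), −0.09 ± 0.03 with S100A4 (adjusted p = 0.14) and −0.35 ± 0.03 with PDGF-BB (adjusted p = 1.6e-06). SEC61B, a subunit of the channel through which new proteins enter the ER, was higher by 0.22 ± 0.05 with the combination (adjusted p = 0.0020) and by 0.16 ± 0.05 with PDGF-BB (adjusted p = 0.014), against −0.02 ± 0.05 with S100A4. The PDGF-BB call of SEC61B was lost without PDGF-BB replicate 1 (0.092) or 3 (0.053), without control replicate 1 (0.058) or 2 (0.059) and under upper-quartile scaling (0.070).

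Over all 24 ER members, 15 were higher and 4 lower with the combination against control, 2 higher and none lower with S100A4, and 14 higher and 3 lower with PDGF-BB. Of all tested genes, 27.5% were called higher and 28.6% lower with the combination, 6.46% and 4.28% with S100A4, and 24.3% and 24.5% with PDGF-BB. Under upper-quartile scaling the split was 14 and 5 with the combination and 11 and 6 with PDGF-BB. That scaling lowered fold changes in general: the share of higher calls among all called genes was 38% with the combination, 50.5% with S100A4 and 39.9% with PDGF-BB, where TMM gave 49.1%, 60.2% and 49.9%. Without the block, 11, 0 and 8 of the 24 were called, against 22%, 0.563% and 14.7% of all genes.

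The ATF4 branch went the other way. Of its 8 members, 5 were lower and none higher with the combination against control, and 5 were lower and none higher with PDGF-BB. Among all tested genes 28.6% were called lower with the combination and 24.5% with PDGF-BB. None of the 8 was called with S100A4, where 4.28% of all genes were lower and 6.46% higher. The median log2 fold change of the 8 was −0.19 with the combination, −0.03 with S100A4 and −0.25 with PDGF-BB, and that of all genes −0.03, −0.02 and −0.02. Every one of these calls rested on the replicate block: without it 0 of the 8 were called in any comparison, where 22% of all genes passed with the combination and 14.7% with PDGF-BB, and the libraries numbered 2 stood far below the others.

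SESN2 (chr6:85321982-85348044) encodes sestrin 2, a leucine sensor that restrains the growth kinase mTORC1. Its levels were 67.1, 27.9 and 46.5 CPM with the combination, 92.5, 39.2 and 85.0 CPM with S100A4, 69.4, 28.1 and 51.2 CPM with PDGF-BB and 93.8, 40.9 and 94.5 CPM in control cells. The groups overlapped through the low libraries numbered 2, but within each number the libraries with PDGF-BB were lower than those without. The log2 fold change against control was −0.69 ± 0.09 with the combination (adjusted p = 1.2e-05), −0.08 ± 0.08 with S100A4 (adjusted p = 0.63) and −0.62 ± 0.08 with PDGF-BB (adjusted p = 3.5e-05). By pair, the log2 difference was −0.48, −0.55 and −1.02 with the combination and −0.43, −0.54 and −0.88 with PDGF-BB. Without the block the adjusted p was 0.35 and 0.47.

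CHAC1 (chr1:130360510-130363332) encodes an enzyme that degrades glutathione and is a marker of ATF4 activity. It stood at 134, 41.6 and 84.1 CPM with the combination, 156, 55.6 and 141 CPM with S100A4, 137, 41.1 and 85.7 CPM with PDGF-BB and 158, 58.6 and 160 CPM in control cells. Both sets with PDGF-BB were below control within every number, and the gap was widest in replicate 3. The log2 fold change against control was −0.56 ± 0.11 with the combination (adjusted p = 0.00052), −0.10 ± 0.10 with S100A4 (adjusted p = 0.64) and −0.54 ± 0.11 with PDGF-BB (adjusted p = 0.00077). Paired log2 differences ran from −0.24 to −0.93 with the combination and from −0.21 to −0.90 with PDGF-BB. The adjusted p without the block was 0.60 and 0.68.

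TRIB3 (chr17:34808273-34819592) encodes a pseudokinase that ATF4 induces and that damps ATF4 in turn. It had 88.5, 33.8 and 68.8 CPM with the combination, 104, 45.2 and 93.8 CPM with S100A4, 83.6, 24.3 and 57.8 CPM with PDGF-BB and 95.7, 35.0 and 80.8 CPM in control cells. Within each number S100A4 was highest, control next, then the combination, and PDGF-BB lowest. Its log2 fold change against control was −0.39 ± 0.08 with PDGF-BB (adjusted p = 0.0010), whereas the values for the combination, −0.13 ± 0.08 (adjusted p = 0.16), and for S100A4, 0.23 ± 0.08 (adjusted p = 0.071), were not called. Without the block the PDGF-BB value had an adjusted p of 0.78, and under upper-quartile scaling the combination value passed (0.035). The S100A4 value passed without S100A4 replicate 1 (0.018), PDGF-BB replicate 1 (0.025) or PDGF-BB replicate 2 (0.038), without all 4 libraries numbered 1 (0.037), without the low-count filter (0.032), and when S100A4 and control libraries were fitted alone (0.0078).

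PSAT1 and PHGDH encode enzymes of serine synthesis. PSAT1 (chr1:231142673-231172364) stood at 162, 49.3 and 116 CPM with the combination, 195, 60.8 and 157 CPM with S100A4, 172, 51.8 and 130 CPM with PDGF-BB and 190, 62.9 and 161 CPM in control cells. It differed from control by −0.35 ± 0.05 with the combination (adjusted p = 2.1e-05), −0.01 ± 0.05 with S100A4 (adjusted p = 0.89) and −0.24 ± 0.05 with PDGF-BB (adjusted p = 0.00065). Libraries of both groups with PDGF-BB were below the same-numbered control in 3 of 3 pairs. PHGDH (chr4:101445977-101478144), which catalyses the first step, gave 77.7, 35.7 and 64.5 CPM with the combination, 84.0, 34.2 and 79.5 CPM with S100A4, 76.7, 32.2 and 65.4 CPM with PDGF-BB and 90.1, 38.9 and 80.3 CPM in control cells. Its log2 differences were −0.22 ± 0.06 with the combination (adjusted p = 0.0041), −0.09 ± 0.06 with S100A4 (adjusted p = 0.35) and −0.27 ± 0.06 with PDGF-BB (adjusted p = 0.0013). All 3 treated groups were below control within each number, though not by a called margin for S100A4. Without the block neither gene was called (adjusted p = 0.77 to 0.90), and PHGDH lost its combination call without the 4 libraries numbered 3 (0.052).

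ASNS (chr9:77318341-77336290), asparagine synthetase, is a classical target of the amino acid response. It gave 197, 99.8 and 166 CPM with the combination, 213, 106 and 187 CPM with S100A4, 213, 104 and 174 CPM with PDGF-BB and 212, 111 and 195 CPM in control cells. The combination was below control in 3 of 3 pairs and PDGF-BB in 2. The log2 difference was −0.16 ± 0.04 with the combination (adjusted p = 0.0031), −0.04 ± 0.04 with S100A4 (adjusted p = 0.61) and −0.08 ± 0.04 with PDGF-BB (adjusted p = 0.096). The combination call was lost without the block (0.83) and without the libraries numbered 3 (0.073), and the PDGF-BB value was called with upper-quartile scaling (0.011) or a stricter count filter (0.032). The remaining members, PPP1R15A, the stress-induced subunit of the eIF2 phosphatase, and CTH, which makes cysteine, were not called against control. PPP1R15A differed from control by 0.05 ± 0.07 with the combination, 0.13 ± 0.07 with S100A4 and −0.07 ± 0.07 with PDGF-BB. Its S100A4 value passed when those libraries and the controls were fitted alone (0.045). Its combination value was called higher, against the direction of the branch, in 2 leave-outs. These were without combination replicate 2 (log2 0.15, adjusted p = 0.032) and without all libraries numbered 2 (log2 0.15, adjusted p = 0.012). CTH differed by −0.05 ± 0.11, 0.23 ± 0.11 and −0.13 ± 0.11 in the same order of groups.

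**Figure D3:**
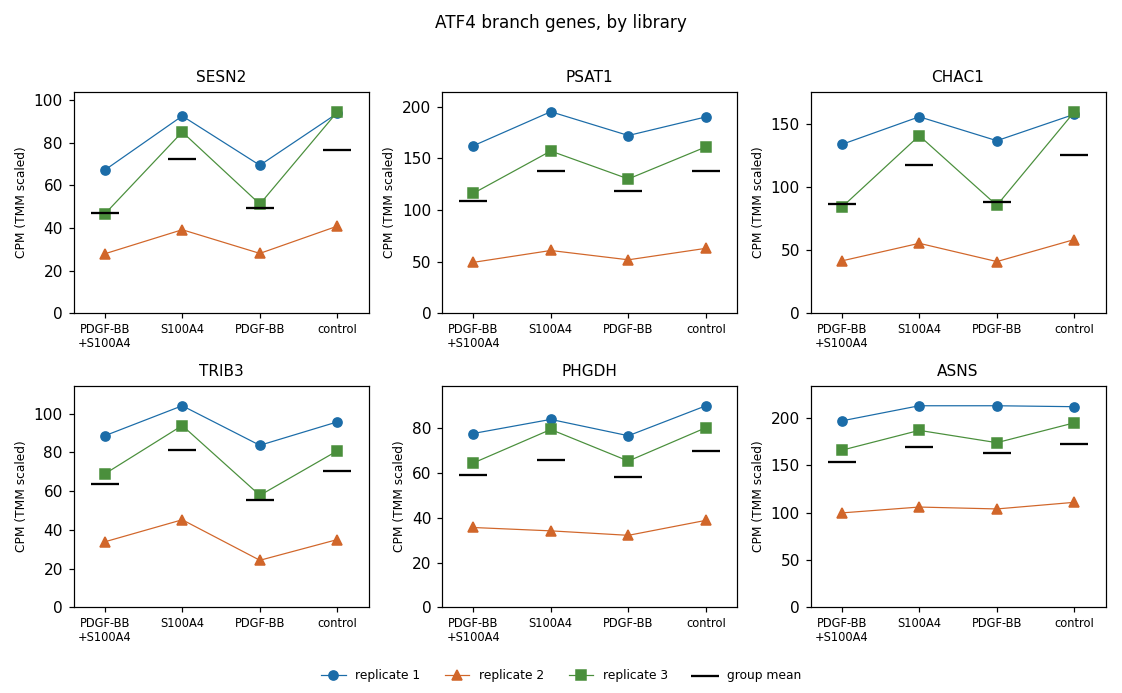
Level of 6 ATF4 branch genes in each of the 12 libraries, in CPM on library sizes scaled by TMM (y axis, from 0), by group (x axis), with lines joining libraries of the same replicate number and black bars for group means (n = 3). In all 6 panels the libraries numbered 2 lie below all others, and within a number the lines of SESN2 and CHAC1 are lower with PDGF-BB, alone or in the combination, than with S100A4 or in control cells.

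None of the 8 ATF4 branch members was called with S100A4 against control by edgeR's quasi-likelihood test. An unadjusted p under 0.05 was reached by 2 of them, TRIB3 and CTH, and by 2904 of all 12444 tested genes. DESeq2 and limma-voom, with the same block, called 0 as well. Set against PDGF-BB cells, S100A4 cells had more of most ATF4 branch genes: 7 of 8 were higher and none lower, against 20.6% of all genes higher and 22.5% lower. TRIB3 was 1.54-fold higher in S100A4 than in PDGF-BB cells (log2 0.62 ± 0.08, adjusted p = 2.1e-05), SESN2 1.46-fold (0.55 ± 0.08, adjusted p = 0.00014) and CHAC1 1.36-fold (0.44 ± 0.11, adjusted p = 0.0038). CTH, PSAT1, PPP1R15A and PHGDH were higher by 0.37, 0.23, 0.20 and 0.17 on the log2 scale, and ASNS, at 0.04 ± 0.04, was not called. In the same comparison the ER folding genes were lower in S100A4 cells: 11 of 14 were called lower and 1, DNAJB9, higher (0.28 ± 0.09, adjusted p = 0.022). CREB3L2 was 1.67-fold higher in S100A4 cells (0.74 ± 0.04, adjusted p = 7.2e-09), and XBP1, ATF6 and SEC24D were higher by 0.22, 0.15 and 0.26.

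Over the 24 ER members, 5 were higher and 14 lower in S100A4 than in PDGF-BB cells, against 2565 and 2802 of all 12444 genes. With upper-quartile scaling 8 were higher and 14 lower, against 2972 and 2464 of all genes. Without the block, 6 of the 24 ER members and 0 of the 8 ATF4 branch members were called in this comparison, against 11.1% of all genes. Of the 26 member calls with the block, 14 held whichever library or replicate number was left out. The calls of SEC61B, P4HB, EDEM1, SYVN1, CANX, PDIA6, ATF6 and PHGDH were each lost without the 4 libraries numbered 1 and without those numbered 3, CTH without those numbered 1, PDIA4 without those numbered 3, DNAJB9 without those numbered 1 or 2, and PPP1R15A without those numbered 2 or 3. Each single library of the S100A4 and PDGF-BB groups, left out alone, ended the call of at least 1 of these 12 genes.

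**Figure D4:**
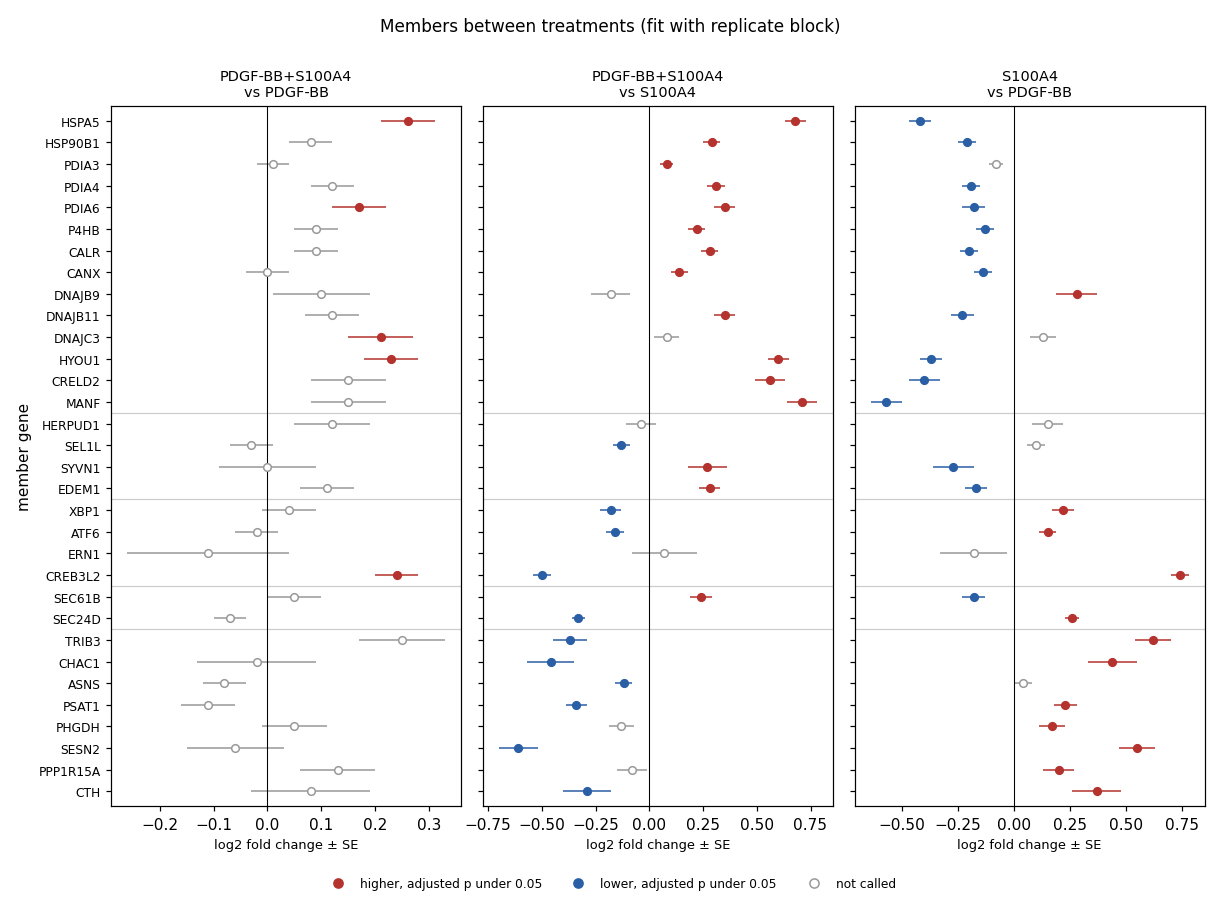
Log2 fold change between treatments ± SE (x axis, n = 3 libraries per group) of the 32 members (y axis), from left to right for the combination against PDGF-BB, the combination against S100A4, and S100A4 against PDGF-BB, from edgeR's fit with the replicate block. Filled red points were called higher, filled blue points called lower and open grey points not called; ER folding genes are mostly right of 0 in the middle panel and left of 0 in the right panel, the ATF4 branch at the bottom the reverse, and the x axes differ in range.

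The combination against PDGF-BB asks what S100A4 added when PDGF-BB was present. In this comparison 5 of the 24 ER members were higher and none lower, and 4 of the 5 were ER folding genes, against 5.11% of all genes higher and 2.03% lower. HSPA5 was 1.20-fold higher with the combination (log2 0.26 ± 0.05, adjusted p = 0.0053), and its paired log2 differences were 0.27, 0.26 and 0.25. HYOU1 was 1.17-fold higher (0.23 ± 0.05, adjusted p = 0.0071), with paired differences of 0.24, 0.24 and 0.20. CREB3L2 was 1.18-fold higher (0.24 ± 0.04, adjusted p = 0.0012), although it stayed under its control level. DNAJC3 (0.21 ± 0.06, adjusted p = 0.044) and PDIA6 (0.17 ± 0.05, adjusted p = 0.047) passed narrowly, and both missed the threshold under RLE or upper-quartile scaling, with DESeq2 or with a stricter count filter (adjusted p = 0.055 to 0.069). The median of the 14 ER folding genes was 0.12, and that of all genes 0.00. Higher calls made up 71.6% of all calls over all genes here and 52.2% for the combination against S100A4, but 59.5% and 41.3% with upper-quartile scaling.

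These 5 calls were sensitive to the choice of libraries. Without the block 0 of the 24 were called, against 0.273% of all genes; the adjusted p then was 1 for HSPA5, 0.65 for HYOU1 and 0.17 for CREB3L2. Without the 4 libraries numbered 1, none of the 5 held (0.11 for HSPA5, 0.11 for HYOU1, 0.39 for DNAJC3, 0.44 for PDIA6 and, just over the threshold, 0.050 for CREB3L2). Without those numbered 3, HYOU1 (0.094), DNAJC3 (0.12) and PDIA6 (0.26) were not called. Leaving out combination replicate 3 ended the HSPA5 call (0.052), and leaving out PDGF-BB replicate 2 the HYOU1 call (0.053). DNAJC3 was lost without PDGF-BB replicate 1 (0.15) or 2 (0.20), combination replicate 1 (0.21) or 3 (0.14), S100A4 replicate 1 (0.076) or control replicate 3 (0.062). PDIA6 was lost without any 1 library except those numbered 2 of the combination and of control (0.052 to 0.25). Without combination replicate 2, on the other hand, MANF (0.043), PDIA4 (0.023) and PPP1R15A (0.021) became calls. None of the 8 ATF4 branch members was called for the combination against PDGF-BB by edgeR, DESeq2 or limma-voom with the block. TRIB3 (log2 0.25 ± 0.08, adjusted p = 0.076) and PSAT1 (−0.11 ± 0.05, adjusted p = 0.20) had an unadjusted p under 0.05, as did 2583 of all 12444 tested genes. TRIB3 passed without PDGF-BB replicate 1 (0.0075), S100A4 replicate 1 (0.043) or all libraries numbered 1 (0.027), without the low-count filter (0.035), and when the 2 groups were fitted alone (0.046).

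The combination against S100A4 shows what PDGF-BB added when S100A4 was present. Of the 14 ER folding genes, 12 were higher with the combination and none lower, against 24.9% of all genes higher and 22.9% lower, and of the 8 ATF4 branch genes 6 were lower and none higher. MANF was 1.64-fold higher with the combination (log2 0.71 ± 0.07, adjusted p = 1.3e-06), HSPA5 1.60-fold (0.68 ± 0.05, adjusted p = 1.6e-07) and HYOU1 1.51-fold (0.60 ± 0.05, adjusted p = 2.3e-07). SESN2 was 1.53-fold lower with the combination (−0.61 ± 0.09, adjusted p = 5.2e-05), CREB3L2 1.41-fold (−0.50 ± 0.04, adjusted p = 2e-07), CHAC1 1.37-fold (−0.46 ± 0.11, adjusted p = 0.0028) and TRIB3 1.29-fold (−0.37 ± 0.08, adjusted p = 0.0013). DNAJB9 was not called (−0.18 ± 0.09, adjusted p = 0.11), but it was called lower in other settings. These included upper-quartile scaling (0.046), leaving out the libraries numbered 2 (0.026) and fitting the 2 groups alone (0.026). Without the block, 10 of the 24 ER members and 0 of the 8 ATF4 branch members were called, against 15% of all genes. Of the 26 member calls with the block, 18 held in every leave-out. ASNS, ATF6, CANX, CTH, PDIA3, SEL1L and SYVN1 were each lost without the 4 libraries numbered 1 and without those numbered 3, and XBP1 without those numbered 1; of single libraries, S100A4 replicates 1, 2 and 3 and combination replicates 1, 2 and 3 each ended at least 1 of these calls, and PDIA3 (adjusted p = 0.040) was lost also without PDGF-BB replicate 1 or 3 or control replicate 3 (0.051 to 0.057).

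The interaction asks whether S100A4 had the same effect with PDGF-BB as without it, and is the first effect minus the second. No member was called by edgeR, where 0.0161% of all genes were called with a positive and 0.0964% with a negative interaction; without the block 0% were. PDIA6 (0.16 ± 0.07) and CALR (0.11 ± 0.05) had an unadjusted p under 0.05, as did 1183 of all 12444 tested genes. DESeq2 and limma-voom called 0 members. For HSPA5 the interaction was 0.13 ± 0.07 (adjusted p = 0.57), for HYOU1 0.14 ± 0.07 (adjusted p = 0.53) and for TRIB3 0.02 ± 0.11 (adjusted p = 0.98). A larger or smaller S100A4 effect with PDGF-BB present was therefore not shown for any of the 32 genes. The log2 interactions of the members ranged from −0.16 to 0.16.

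The ATF4 branch and the ER members also differed in how they varied with replicate number. In 7 of the 8 ATF4 branch genes, all except PPP1R15A, all 4 libraries numbered 2 lay below all 8 others. Among all tested genes this held for 11.7%, and the opposite, all 4 above, for 9.43%. Of the 24 ER members 3 lay below (SEL1L, XBP1 and ATF6), 1 above (ERN1), and 20 overlapped. The mean of the libraries numbered 2 over that of the others was 0.350 for PSAT1, 0.373 for CHAC1, 0.411 for TRIB3, 0.454 for SESN2, 0.456 for PHGDH, 0.540 for ASNS and 0.657 for CTH. Those distances exceed any treatment effect on the same genes. For MANF, CRELD2, HYOU1 and DNAJB11 the ratio was 0.997, 0.997, 0.961 and 1.03, and for ERN1 it was 15.2. The smooth muscle and fibroblast marker sums, made up mostly of ACTA2 and LUM, and the endothelial sum without ERG, also differ between the libraries numbered 2 and the others. A different mix or state of cells and a different stress gene level therefore cannot be told apart here. The labels do not say what a number stands for.

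**Figure D5:**
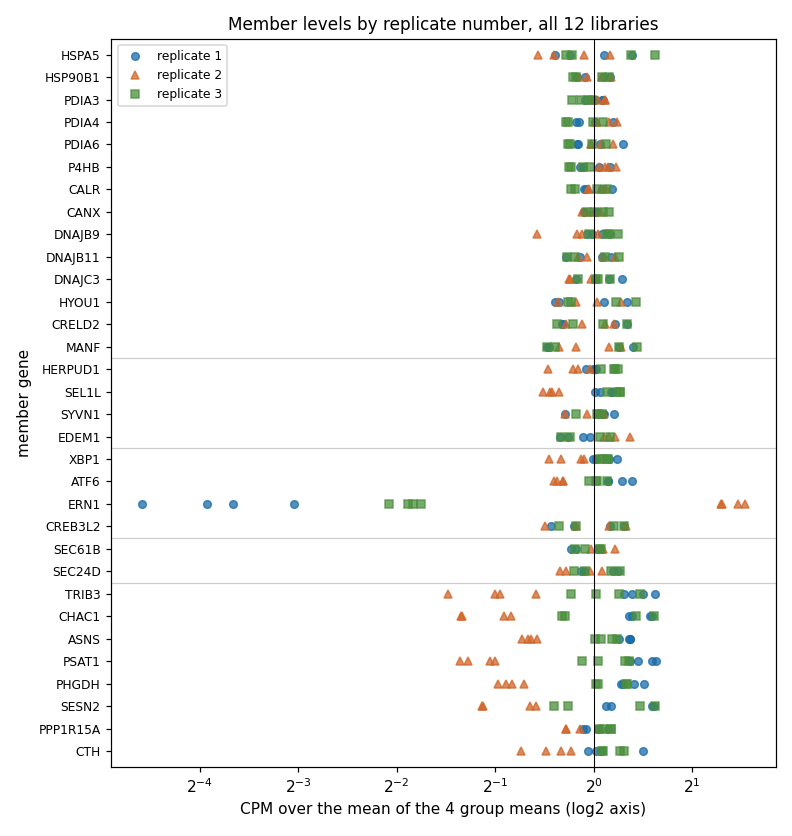
CPM of each of the 12 libraries over the mean of the 4 group means (x axis, log2 scale) for the 32 members (y axis), with marker and colour for replicate number. The libraries numbered 2 lie left of all others in 7 of the 8 ATF4 branch genes at the bottom and far right for ERN1, while they overlap the others in 20 of the 24 ER members.

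Other genes of these pathways were counted in the same way. Among 48 other tested genes of ER quality control and secretion, 18 were higher and 9 lower with the combination against control, 2 higher and 1 lower with S100A4, and 12 higher and 4 lower with PDGF-BB. For all tested genes the shares were 27.5% higher and 28.6% lower with the combination, 6.46% and 4.28% with S100A4, and 24.3% and 24.5% with PDGF-BB, so the number of higher genes with PDGF-BB and with S100A4 was near that background. The medians of the 48 genes, 0.03, 0.00 and 0.03 on the log2 scale, were close to those of all genes. The higher calls with the smallest adjusted p under PDGF-BB were SPCS3, a signal peptidase subunit (0.48 ± 0.05), TXNDC11, a thioredoxin-like ER protein (0.59 ± 0.07), and SEC23B, a COPII coat subunit (0.36 ± 0.05). They were higher by 0.58, 0.55 and 0.59 with the combination. OS9 and ERLEC1, lectins of ER-associated degradation, were lower with PDGF-BB (−0.15 ± 0.04 and −0.16 ± 0.04), as was SEC31A of the COPII coat (−0.11 ± 0.03). EIF2AK3, which encodes PERK, was among the 2 higher with S100A4 (0.26 ± 0.07, adjusted p = 0.034).

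Among 42 other genes of ATF4 and the amino acid response, 9 were higher and 18 lower with the combination against control, 7 higher and 2 lower with S100A4, and 6 higher and 20 lower with PDGF-BB. The shares over all genes were those given for the ER genes, 27.5% and 28.6%, 6.46% and 4.28%, and 24.3% and 24.5%. The medians of the 42 were −0.06, 0.03 and −0.14. KLHL24 was the lowest, with −1.81 ± 0.10 for the combination and −1.84 ± 0.10 for PDGF-BB (adjusted p = 4.2e-09 and 8.6e-09), followed by NUPR1, a stress-induced chromatin protein, with −1.08 ± 0.10 and −1.41 ± 0.10. VLDLR, a lipoprotein receptor, was lower as well (−0.65 ± 0.03 and −0.60 ± 0.03). The higher calls included SLC7A5 (0.61 ± 0.07 and 0.57 ± 0.07) and SLC7A1 (0.45 ± 0.04 and 0.31 ± 0.04), importers of amino acids, and NARS1, the asparaginyl-tRNA synthetase (0.35 ± 0.03 and 0.27 ± 0.03), with the combination and with PDGF-BB. Other transporters of the list were lower, such as SLC1A4 (−0.72 ± 0.07 and −0.57 ± 0.07) and SLC38A2 (−0.50 ± 0.09 and −0.46 ± 0.09). With S100A4 against control the calls were led by CEBPB, a transcription factor that pairs with ATF4 (0.82 ± 0.06, adjusted p = 8.5e-07), NFE2L2, the oxidative stress factor (0.35 ± 0.04, adjusted p = 5.7e-05), and SLC7A11, the cystine importer (0.49 ± 0.07, adjusted p = 0.00031). Without the block, 6, 0 and 4 of the 48 ER genes and 7, 1 and 5 of the 42 amino acid response genes were called with the combination, S100A4 and PDGF-BB, against 22%, 0.563% and 14.7% of all genes.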

How the data were processed

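The authors deposited raw read counts (whole numbers, without normalization) of genes under Ensembl identifiers for 12 libraries. Per the submitters' processing notes, CASAVA 1.8.2, STAR 2.4, featureCounts 1.4.6 and the build Sscrofa11.1 were used; their settings, gene annotation, strand option and handling of multiply mapped reads were not given in the sources used here, so reads of overlapping, antisense or near-identical genes may be split or shared. Per the labels' protocols, libraries were TruSeq RNA, read as single 100 nt ends. Symbols came from a table of gene names by Ensembl identifier, in which 14572 of 21153 identifiers had a symbol. Gene spans came from NCBI's gene table of the same build. The ER, ATF4 and other lists were chosen with earlier results of these data known, so no result on them is independent evidence of its direction.

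Genes were kept by filterByExpr (minimum count 10) and scaled by TMM. edgeR 4.0.16 (R 4.3.3) fitted all 12 libraries with 4 group means and replicate number as a block, by the quasi-likelihood test, two-sided, with Benjamini-Hochberg adjustment over 12444 genes and a threshold of 0.05, in 7 comparisons. The pairing by number was planned, as the design text names cells of 3 animals, and was then checked in the data. Each of the 12 libraries resembled a same-numbered library most. The lowest r of a same-numbered pair was 0.746, and the highest of the other pairs 0.136. The common biological coefficient of variation was 5.14% with the block and 27.2% without it. The labels tie no library to an animal, so p-values speak only of the variation among these libraries. Within groups no 2 libraries agreed within counting error (chi-square per gene 22.9 to 162). The steps were tested on simulated data. Paired log2 differences use a prior count of 2. Alternatives were no block, RLE and upper-quartile scaling, DESeq2 1.42.0, limma-voom (3.58.1), other count filters, the compared groups fitted alone, and leaving out libraries. Values by library are named for the genes with the smallest adjusted p against control in each list (6 of ER folding, 2 of degradation, 3 sensors and factors, 1 of export, 6 of the ATF4 branch); others were named after their values were seen. Where treatment groups are said not to overlap, the share of all genes for which this holds is not given. No sequence was used.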

Additional observations from a re-analysis of the deposited data

How the results depend on the processing

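No member changed the sign of a called value under any alternative. The replicate block mattered most. In the unpaired fit without the replicate block, against control the combination gave 11 ER, 0 ATF4 branch and 2732 calls over all genes (19, 5 and 6982 with the block), S100A4 0 ER and 70 over all (2 and 1336), and PDGF-BB 8, 0 and 1830 (17, 5 and 6075). For the combination against PDGF-BB it gave 0 ER and 34 over all (5 and 888), for the combination against S100A4 10, 0 and 1862 (20, 6 and 5948), for S100A4 against PDGF-BB 6, 0 and 1382 (19, 7 and 5367), and for the interaction 0 over all (14), with 152 at an unadjusted p under 0.05. ER calls of the combination against PDGF-BB were 3 with RLE or upper-quartile scaling, DESeq2 or the stricter filter. Over all genes, RLE scaling then gave 602 higher and 281 lower calls, upper-quartile scaling 552 and 375, and the stricter filter 523 and 271. The interaction had 60 calls over all genes with DESeq2 and 85 without the filter. ATF4 branch calls of S100A4 against control were 1 without the filter and 2 with the 2 groups fitted alone, and of the combination against PDGF-BB 1 in each. Without the filter, all genes had 849 higher and 551 lower calls for S100A4 against control. For the combination against PDGF-BB they had 663 and 360. Calls also varied when 1 library or replicate number was left out. S100A4 against control then had 0 to 3 ER and 0 to 1 ATF4 branch calls, and 608 to 1521 over all genes. The combination against control had 3 to 6 ATF4 branch calls, and 5312 to 7008 over all genes. The combination against PDGF-BB had 0 to 7 ER and 0 to 1 ATF4 branch calls, and 326 to 1306 over all genes. S100A4 against PDGF-BB had 11 to 21 ER and 4 to 7 ATF4 branch calls, and 3628 to 5636 over all genes. The interaction had 1 to 117 calls over all genes. These settings use fewer libraries or, for filters, other genes tested, and other causes were not tested. Calls are counted in either direction, and those of PPP1R15A for the combination against control were higher ones. ERN1, at under 1 CPM in the libraries numbered 1, is limited by depth.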

Other observations

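Chaperones outside the ER were tested as a list of 20 cytosolic and mitochondrial heat shock genes, which also held the transcription factors HSF1 and HSF2. HSPA1A, HSPA1B and HSP90AA1 could not be matched to an identifier each and were not tested. Against control, 13 were higher and 2 lower with the combination. With S100A4 none was higher and 1 lower, and with PDGF-BB 12 were higher and 1 lower. Without the replicate block 9 were called with the combination, 0 with S100A4 and 8 with PDGF-BB, all of them higher. Of all tested genes, 27.5% were called higher and 28.6% lower with the combination, 6.46% and 4.28% with S100A4, and 24.3% and 24.5% with PDGF-BB, and without the block 22%, 0.563% and 14.7% in either direction. HSPA8, the constitutive cytosolic HSP70, differed by 1.14 ± 0.07 on the log2 scale with the combination (adjusted p = 1.5e-08, edgeR) and 0.99 ± 0.07 with PDGF-BB (adjusted p = 1e-07). DNAJA1, its co-chaperone, gave 0.76 ± 0.05 and 0.66 ± 0.05, and HSPD1, the mitochondrial chaperonin, 0.50 ± 0.03 and 0.47 ± 0.03. CRYAB, a small heat shock protein of muscle, was lower with all 3 treatments, at −0.14 ± 0.04 with the combination, −0.18 ± 0.04 with S100A4 and −0.13 ± 0.04 with PDGF-BB. Without the block CRYAB was not called in any of the 3.

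Among 14 genes of eIF2, its kinases and its phosphatase, 9 were higher and 4 lower with the combination against control, 1 higher and 1 lower with S100A4, and 6 higher and 2 lower with PDGF-BB; without the block 5, 0 and 3 were called. Against the shares of all genes given above, both counts with S100A4 were near the background. EIF2S1, the subunit of eIF2 that is phosphorylated, was higher by 0.52 ± 0.04 with the combination (adjusted p = 1.2e-07) and 0.48 ± 0.04 with PDGF-BB (adjusted p = 4.7e-07). EIF2AK4, which encodes the amino acid sensing kinase GCN2, was lower with all 3 treatments, at −0.41 ± 0.06 with the combination, −0.21 ± 0.06 with S100A4 and −0.26 ± 0.06 with PDGF-BB. Without the block no gene of this list was called lower with S100A4 or with PDGF-BB.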
